A study of Drosophila melanogaster and Drosophila simulans with 122 samples.

Results

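Single cysts of elongating spermatids (eST) were compared between D. sim WT, the Drosophila simulans control strain, and D. sim KO, the miR-983 knockout strain of the same species. The comparison takes 12 of the 122 libraries of the study, 6 cysts of D. sim WT and 6 of D. sim KO, chosen by the genotype and stage in their labels. The whole study sequenced testes and single cysts of these strains and of D. melanogaster lines, and asked how a young microRNA contributes to expression divergence between the species. Every eST cyst came from a dissected testis of a mated male 2 to 3 days after eclosion and was picked as a bundle of 250 to 350 μm in length. In D. sim KO, the stretch of the X-linked miRNA gene that encodes dsi-miR-983a-5p is deleted in part and mutated. Both strains come from earlier work. Each genotype is thus a single strain, and the loss of miR-983 cannot be told apart from other differences between the strains.

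A microRNA is a short RNA that guides an Argonaute protein to messenger RNAs with a matching site and lowers their stability or translation. The match depends mostly on the seed near its 5′ end. In flies, all spermatids of a cyst descend from 1 founder cell and elongate together as a bundle. Most of the transcripts they use were made earlier, in primary spermatocytes, and few genes are transcribed after meiosis. Elongating spermatids are therefore known for a pool of stored messages that is used up over time.

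The sequences that set the species apart at this locus are shown by the forward primers of the assays for mature miR-983-5p. The bases in capitals are the part specific to each miRNA, and those in lower case are a start shared by all miRNA primers of the study.
dsi-miR-983-5p: ggcgAGTAATACCTTTCGAAC
dme-miR-983-5p: ggcgATAATACGTTTCGAAC
The specific part has 17 bases for D. simulans and 16 for D. melanogaster, and the last 8 bases are shared by both. In the reference annotation of D. melanogaster, mir-983-1 and mir-983-2 lie on X. The mature miRNA itself is not measured by these libraries of messenger RNA.

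The D. simulans genes are known here by their FlyBase identifiers and positions in genome r2.02. The files pair none of the 15385 identifiers with a gene name, and none of the 15266 counted genes matched the name tables used. Genes are therefore described by arm, position, level and stage, and no function is given for any of them. For the same reason the 216 marker symbols of spermatogenic, somatic, muscle and accessory gland genes found no D. simulans gene. The labelled stage was checked only by likeness to the other cysts.

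Total counts of the eST cysts lay between 15856462 and 22855090, and 10867 to 12833 genes had at least 1 read. Total counts did not differ between the lines beyond their spread (two-sided exact permutation test, p = 0.682, n = 6 per line), nor did the number of genes with reads (two-sided exact permutation test, p = 0.348, n = 6 per line). The share of counts in the 100 most abundant genes was 32.3% ± 6.03 in D. sim WT (SD, n = 6) and 31.8% ± 3.7 in D. sim KO (SD, n = 6). The lines overlapped in each of these measures.

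The bundles were not all alike in expression. Each cyst was placed on an axis on which the mean of the round spermatid (rST) cysts of both lines is 0 and that of the eST cysts is 1. The axis is built from the expression of these same cysts. Whether a position reflects the progress of a bundle was not tested. D. sim WT cysts spread from 0.459 to 1.6 on this axis and D. sim KO cysts from 0.212 to 1.27. Their means were 1.03 ± 0.421 (SD, n = 6) and 0.97 ± 0.401 (SD, n = 6), which differed by less than the spread (two-sided exact permutation test, p = 0.801). For D. sim WT replicates 3 and 5 and D. sim KO replicate 5, the most similar cyst by Spearman correlation of FPKM was an rST cyst of the same line. These 3 cysts had the lowest positions, and the main values below are also given without them. The count label of one of them, D. sim WT replicate 5, ends in an added r whose meaning is not given. D. sim WT replicate 4 lay farthest on the other side, at 1.6, and was kept. Its mean correlation with the other eST cysts of its line was 0.889, the lowest of all. Among eST cysts alone, the most similar one was of the same line for all 12.

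**Figure D1:**
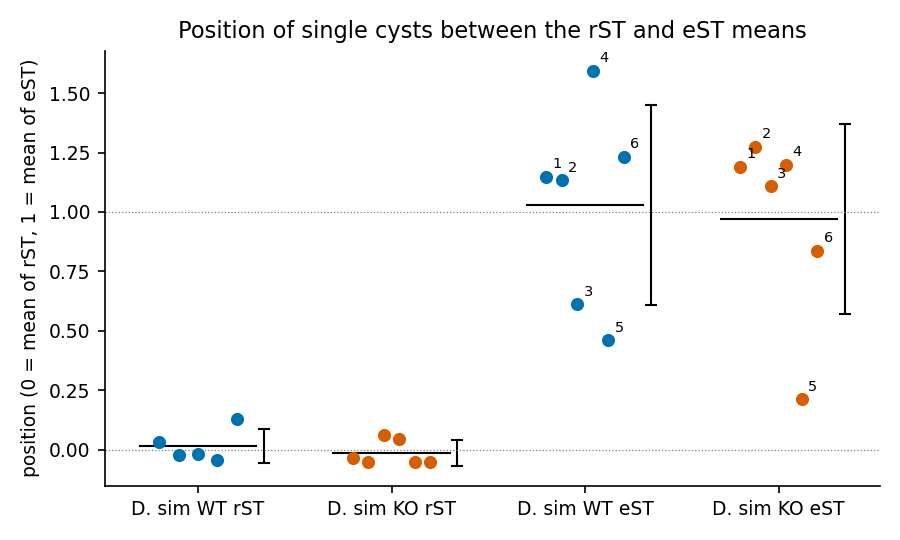
Position of each rST and eST cyst (points) between the mean of the rST cysts, at 0, and that of the eST cysts, at 1, in units of that distance. Lines are group means, bars are SD, and numbers are replicates of eST. Replicates 3 and 5 of D. sim WT and replicate 5 of D. sim KO sit nearest to the rST cysts, between 0.212 and 0.612.

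D. sim KO cysts had higher correlations among themselves than D. sim WT cysts had. Pairs of D. sim KO eST cysts had Spearman correlations of FPKM between 0.921 and 0.959, with a median of 0.944 over 15 pairs that share cysts. Pairs of D. sim WT eST cysts lay between 0.864 and 0.948, with a median of 0.902. The spread between cysts, given by edgeR as a biological coefficient of variation, was 79.8% within D. sim WT and 63.5% within D. sim KO. Without the 3 cysts near rST it was 78.5% and 56.9%. Whether the lines differ in this spread was not tested.

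In the comparison of both lines at eST, called A in the study, 542 of 11618 tested genes were differentially expressed, or 4.67% (edgeR quasi-likelihood test, FDR under 0.05 and absolute log2 fold change above 1). Of these, 312 genes were higher in D. sim WT (2.69%) and 230 were lower (1.98%). Without the 3 cysts near rST, 449 genes were called, 253 higher and 196 lower, and 382 of them were among the 542. None of the 542 genes changed direction there, and 1 of them was not tested. With the position of each cyst as a covariate, 522 of the 542 were called in the same direction. The median log2 fold change over all tested genes was 0.01 after scaling.

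The estimated changes of the called genes were large, and the genes were chosen by a threshold on that size. Among the genes called higher in D. sim WT the median log2 fold change was 3.11, or 8.66-fold, and 120 of the 312 exceeded 4 on the log2 scale. Among those called lower the median absolute log2 fold change was 3.19, or 9.11-fold, and 85 of the 230 exceeded 4. Over all tested genes the median absolute log2 fold change was 0.46. The genes called higher took up 0.865% to 1.23% of the counts of each D. sim WT cyst and 0.175% to 0.283% of each D. sim KO cyst. Those called lower took up 0.0902% to 0.172% and 0.607% to 0.72%, in the same order. These medians and shares describe the genes chosen by the test and are no further evidence for it.

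**Figure D2:**
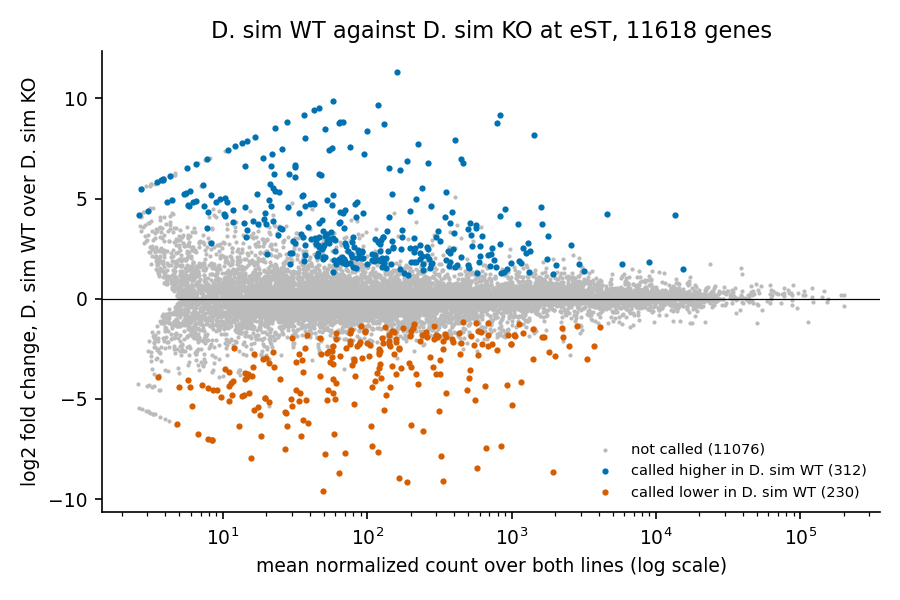
Log2 fold change of D. sim WT over D. sim KO at eST against the mean normalized count over both lines (log scale) for 11618 genes (points). The 312 genes called higher in D. sim WT are blue, the 230 called lower are orange, and calls of either direction are found at low and high counts.

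Normalized counts of both lines did not overlap for 398 of the 542 genes, while 4.1% of all tested genes, 476 in number, had no overlap. Many of the differences were between presence and near absence. There were 21 genes called higher in D. sim WT without a single read in the 6 D. sim KO cysts (0.181% of tested genes) and 7 called lower without a read in D. sim WT (0.0603%). Against a floor of 3 counts over the silent group, the former were at least 11-fold to 656-fold higher in D. sim WT. The latter were at least 18.9-fold to 194-fold lower. Such floors cover counting error only. At most 10 reads over the D. sim KO cysts were found for 77 of the genes called higher, and at most 10 over the D. sim WT cysts for 54 of those called lower. How many tested genes without a call had so few reads was not counted.

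The largest change upward was that of FBgn0269358, at 3L:14105999-14108435 on the plus strand. Its normalized counts in D. sim WT were 151 at the lowest, 274 at the median and 570.1 at the highest, and every D. sim KO cyst was at 0. The lines did not overlap. It was at least 656-fold higher in D. sim WT at a mean of 323 ± 166 (SD, n = 6; edgeR adjusted p = 2.1e-05). The span of this gene overlaps that of another one. The counting ignored the strand, so reads from a shared stretch cannot be assigned to either gene by strand. In rST cysts FBgn0269358 had 6.62 ± 4.29 FPKM in D. sim WT (SD, n = 5) and 0.0149 ± 0.0241 in D. sim KO (SD, n = 6). In testes it had 4.23 ± 0.538 and 0.0138 ± 0.014 FPKM (SD, n = 3 each). It was called higher in D. sim WT at pSC, the primary spermatocytes, at rST and in testes, and not at SG, the spermatogonia, where D. sim WT had 1.54 ± 1.12 FPKM (SD, n = 6) and D. sim KO 0.178 ± 0.273 (SD, n = 6; edgeR adjusted p = 0.554).

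The largest change downward was that of FBgn0195978, at X:9603245-9605080 on the minus strand, which overlaps no other gene. No D. sim WT cyst had a read of it. In D. sim KO it reached 45.7 normalized counts at the lowest, 78.8 at the median and 231 at the highest, the highest being replicate 5, the cyst nearest to rST. At a mean of 98.3 ± 67.9 in D. sim KO (SD, n = 6) it was at least 194-fold lower in D. sim WT (edgeR adjusted p = 0.00014). FBgn0195978 was at 9.25 ± 1.91 FPKM in D. sim KO rST cysts (SD, n = 6) and 13.4 ± 1.48 in D. sim KO pSC cysts (SD, n = 5), against 2.5 ± 2.05 at eST (SD, n = 6). In D. sim WT it had no read at SG and rST, 13 reads over the pSC cysts and 3 over the testes.

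The most abundant gene called higher without overlap was FBgn0193415, at 2L:14085854-14087418 on the minus strand, which overlaps no other gene and had its highest mean FPKM at eST. D. sim WT cysts had 11644 normalized counts at the lowest, 19898 at the median and 37656 at the highest. D. sim KO cysts had 5654, 8242 and 9321. The log2 fold change of FBgn0193415 was 1.49 (standard error 0.352, edgeR adjusted p = 0.021), with means of 22590 ± 10595 and 8018 ± 1273 (SD, n = 6 each). Without D. sim KO replicate 1 its adjusted p was 0.053. In FPKM at eST the difference was smaller and the lines overlapped, with 935.4 ± 262 in D. sim WT, from 669.4, and 571.7 ± 132 in D. sim KO, up to 807.3 (SD, n = 6 each). In testes the lines were at 502.1 ± 3.25 and 532.8 ± 18.4 FPKM (SD, n = 3 each), a log2 fold change of -0.26.

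The most abundant gene called lower without overlap was FBgn0196985, at 2R:10757407-10759156 on the minus strand, with its highest mean FPKM at SG. D. sim WT cysts had 1364, 1917 and 3963 normalized counts at the lowest, the median and the highest, and D. sim KO cysts 4527, 5459 and 8932. Its log2 fold change was -1.42 (standard error 0.346, edgeR adjusted p = 0.025). The call rests on single cysts, since without D. sim WT replicate 1 or 2 or D. sim KO replicate 2 or 4 the adjusted p lay between 0.0502 and 0.0707. FBgn0196985 was at 228 ± 52 FPKM in D. sim WT SG cysts and 236.1 ± 25 in D. sim KO (SD, n = 6 each), then 59.2 ± 34 and 157.3 ± 30.6 at eST (SD, n = 6 each). At rST it was at 105.3 ± 5.35 FPKM in D. sim WT (SD, n = 5) and 201.8 ± 7.27 in D. sim KO (SD, n = 6). Its log2 fold change there was -0.9 (edgeR adjusted p = 2.9e-08), short of the threshold of 1 for a call. The lines did not overlap in FPKM at pSC, rST or eST, and they overlapped at SG and in testes.

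**Figure D3:**
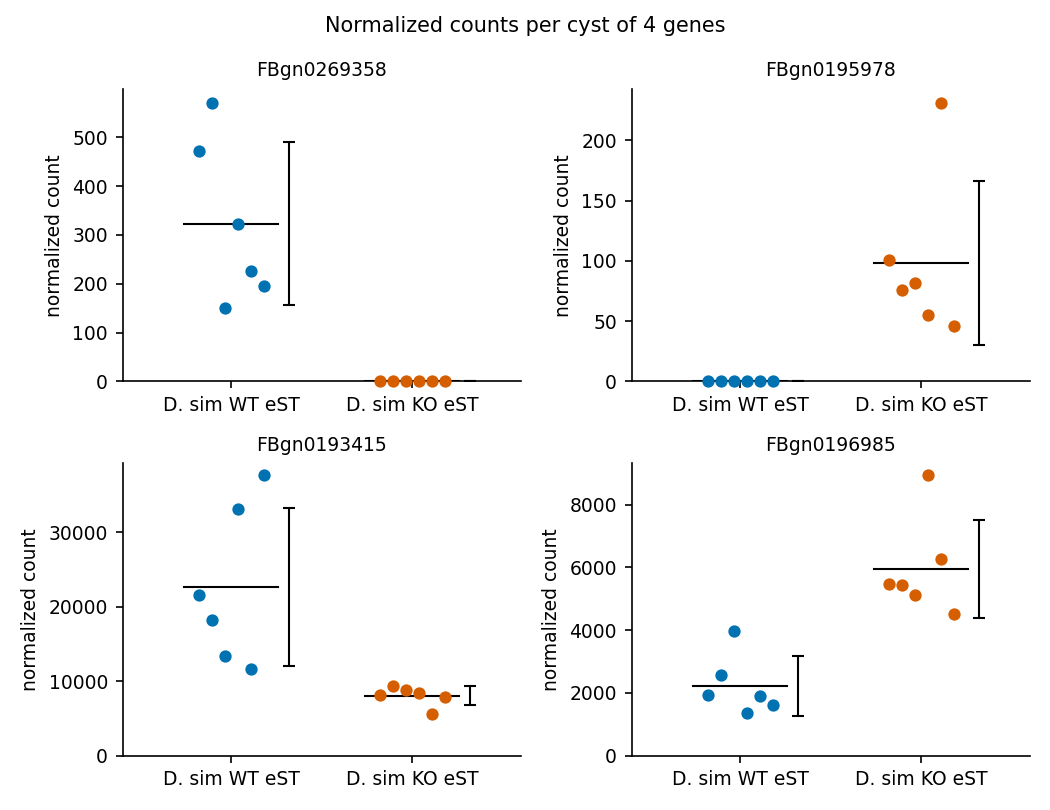
Normalized counts per eST cyst (points) of the 4 genes described by identifier, with group means (lines) and SD (bars), on axes that start at 0. FBgn0269358 is at 0 in every D. sim KO cyst, FBgn0195978 is at 0 in every D. sim WT cyst, and the other 2 genes are present in all 12 cysts without overlap of the lines.

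Further genes of high rank are given by position. A gene at 2L:13887778-13888736, which overlaps no other and peaked at eST, had 3887 ± 1167 normalized counts in D. sim KO (SD, n = 6) and 10.2 ± 14 in D. sim WT (SD, n = 6; edgeR adjusted p = 4.4e-05). A gene at 2L:5197108-5198272 was as one-sided in the other direction, with a mean of 1671 normalized counts in D. sim WT, from 284.5 to 2730, and of 2.79 in D. sim KO, from 0 to 4.08 (n = 6 each; edgeR adjusted p = 6.3e-06). In testes the log2 fold change of the latter was 0.38, without a call. On 3L, genes at 22086069-22086742 and 22091183-22091764 both had a single read over the 6 D. sim KO cysts and 757 and 1401 reads over the D. sim WT cysts. Among called genes without overlap of the lines, the 10 with the largest changes in each direction were all called the same way at pSC. At rST it was 9 of those higher and 10 of those lower. Of all genes tested, 8.95% were called higher and 4.35% lower at pSC, and 7.45% and 5.25% at rST.

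The genes called at eST were then followed in cysts of other stages and in testes of the same strains, which are separate libraries. Among all genes tested between the lines, 0.785% were called at SG, 13.3% at pSC, 12.7% at rST and 10.2% in testes. At rST, 301 of the 312 genes higher in D. sim WT were tested. Of these, 293 were higher there too, and 250 were called higher (83.1%, against 7.45% of all genes tested at rST). Of the 227 tested genes that were lower in D. sim WT at eST, 223 were lower at rST and 176 were called lower (77.5%, against 5.25% of all genes). Their median log2 fold changes at rST were 2.64 and -2.3, beside 3.07 and -3.18 at eST for the same genes. The genes were chosen by their size at eST, so the gap between these medians does not measure a change between stages. Without the 3 cysts near rST, 196 of 249 and 136 of 194 genes called at eST were called at rST in the same direction.

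Going back from rST to earlier stages, fewer of these genes were called. At pSC, 230 of 302 genes higher at eST were called higher (76.2%, background 8.95%) and 142 of 227 lower (62.6%, background 4.35%). At SG, 26 of 295 and 21 of 220 were called in the same direction (8.81% and 9.55%, backgrounds 0.348% and 0.437%), though 253 and 188 had the same sign. The spread between SG cysts, with a biological coefficient of variation of 75.2%, was above that at pSC, 37.5%, and rST, 29.3%, and its part in the lower number of calls was not tested. Calls in the same direction at both rST and pSC were found for 220 of the genes higher and 130 of the genes lower in D. sim WT at eST. There were 35 genes higher and 37 lower that were called the same way at none of the other stages nor in testes.

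The testes, pooled from males 3 to 5 days after eclosion and thus of another age range than the cysts, hold all stages and somatic cells. In them, fewer cells of a type and less RNA per cell cannot be told apart. Of the genes higher at eST, 245 of 309 had the same sign in testes and 132 were called higher (42.7%, background 5.82%). Of those lower at eST, 176 of 217 had the same sign and 94 were called lower (43.3%, background 4.41%). The median log2 fold changes in testes were 0.8 and -0.83, nearer to 0 than at rST. A few genes went the other way, with 6 genes higher at eST called lower in testes and 10 genes lower at eST called higher. The widest gap among these was a gene on 2L with its peak at eST, with a log2 fold change of -7.64 at eST and 5.53 in testes, which overlaps another gene.

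**Figure D4:**
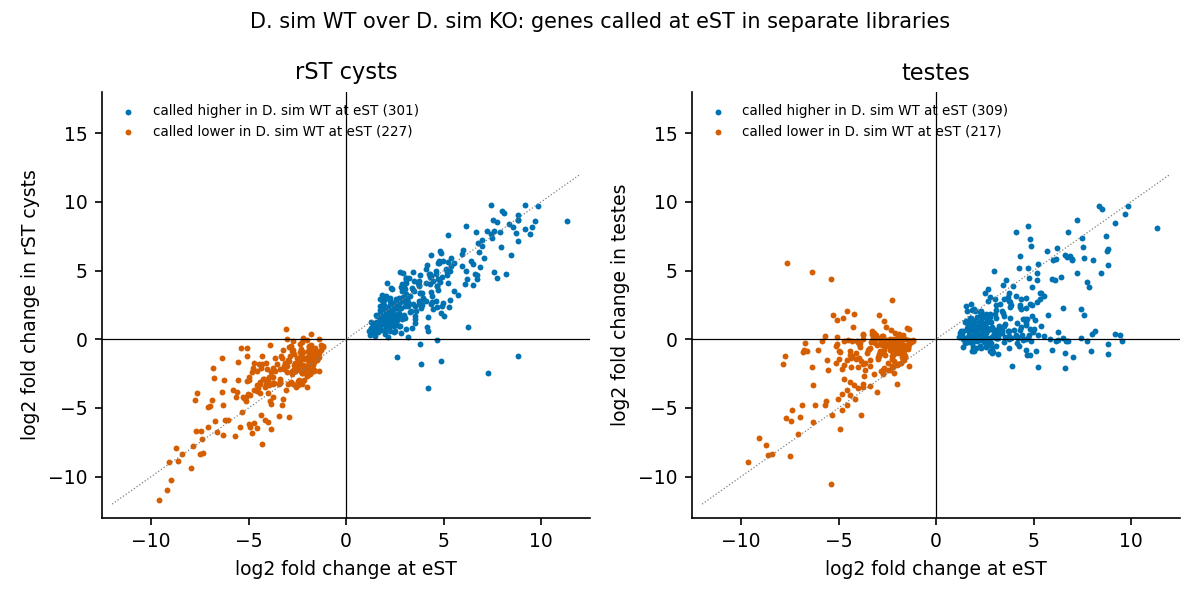
Log2 fold change of D. sim WT over D. sim KO at eST (horizontal axis) against that in rST cysts (left) and in testes (right) for the genes called at eST (points, blue for higher and orange for lower in D. sim WT). The dotted line marks equal values, and points lie along it at rST while many lie near 0 in testes.

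Of the 21 genes without a read in D. sim KO at eST, 19 had at most 10 reads over the D. sim KO rST cysts and 18 over the pSC cysts. All 21 had more than 10 reads over the D. sim WT cysts at each of these stages. At SG, 10 of the 21 had at most 10 reads in D. sim KO, and 1 of them reached 313. The 7 genes without a read in D. sim WT at eST had at most 8 reads over the D. sim WT rST cysts, at most 5 over the SG cysts and at most 13 over the pSC cysts. In testes of D. sim WT, 6 of these 7 genes had at most 10 reads and 1 had 233. In testes of D. sim KO, 13 of the 21 genes had at most 10 reads and 1 had 2261.

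Whether the difference between the lines at eST was unlike that at rST was tested directly as an interaction. It was called for 11 of 12263 genes (0.0897%), of which 5 had a higher and 6 a lower log2 fold change at eST than at rST, while 750 genes had an unadjusted p under 0.05. For 6 of the 11 genes the sign differed between the stages. A gene at 3R:6293347-6295515 had a log2 fold change of 8.79 at eST and -1.22 at rST, where it was not called. It was called higher in D. sim WT at pSC, at 5.81, and in testes, at 6.43. Its normalized counts in D. sim WT eST cysts ranged widely, from 22.2 to 6448. A gene at 3L:10379763-10380170 had 4.18 at eST and -3.55 at rST, and was called at both. A gene at 2L:12559805-12562318, one of the most abundant of those called, had 8689 ± 3864 normalized counts in D. sim WT eST cysts and 466.1 ± 302 in D. sim KO (SD, n = 6 each), and its log2 fold change was 4.22 at eST and 1.6 at rST. In the other direction, a gene at 3R:1337860-1344922 was at 2.95 at rST and -0.52 at eST.

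The number of genes in this test rests on single cysts. It was 183 without the 3 cysts near rST, with all 11 among them, and 55 without D. sim KO replicate 5 alone. These cysts were singled out after seeing the data for their likeness to rST. A test against rST without them is not independent of that choice. The number was 0 without D. sim KO replicate 1 or 3.

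Genes were also grouped by the stage with the highest mean FPKM over both lines. These means include the eST cysts that gave the calls, so the shares called and their order are not independent of the grouping. Of 1722 tested genes with their peak at eST, 67 were called higher and 45 called lower, or 6.5% in all. Of 2732 genes with their peak at pSC, 116 were higher and 69 lower, or 6.77%. The shares were 4.57% of 1029 genes for rST and 3.23% of 6135 genes for SG. Genes of SG thus made up 52.8% of the tested genes and 36.5% of the called ones, while those of pSC made up 23.5% and 34.1%. Without the 3 cysts near rST the order was pSC, 5.82%, eST, 5.34%, rST, 3.98%, and SG, 2.56%. The split by direction depends on how the peak is set. With the peak taken from D. sim WT alone, 82 eST genes were higher and 14 lower, since a gene that is high in D. sim WT at eST is then more often placed there.

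Calls were found at all levels of expression. The tested genes were divided into 4 classes of equal size by mean normalized count. In the class with the lowest counts, 4.2% were called, and the median absolute log2 fold change of the called genes was 4.84. In the middle classes 5.96% and 5.85% were called. In the class with the highest counts, above a mean of 587, 2.65% were called, 42 higher and 35 lower, at a median absolute log2 fold change of 2.26. Leaving out the 3 cysts near rST, 2.58% were called in the class with the lowest counts and the same share in that with the highest. The gene models of called genes were like those of all tested genes, with a median span of 2184 bases against 2312 and overlap with another gene in 43.2% against 42.3%.

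The called genes were unevenly placed over the genome. On X, which carries the miRNA in D. melanogaster, 38 of 1792 tested genes were called (2.12%), 19 in each direction. On the arms of chromosomes 2 and 3 together it was 496 of 9610 (5.16%). The single arms ranged from 4.87% on 2L and 4.99% on 3R to 5.39% on 3L and 5.41% on 2R. Of 75 genes on chromosome 4, 1 was called. Without the 3 cysts near rST the shares were 1.84% on X and 4.29% on the arms of 2 and 3. The share on X was also the lower one in the separate libraries of the same strains, with 6.51% against 13.9% at rST, 9.05% against 14.1% at pSC, 0.306% against 0.867% at SG and 6.04% against 11.1% in testes. Neighbouring genes are not independent, and no test was made over genes.

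**Figure D5:**
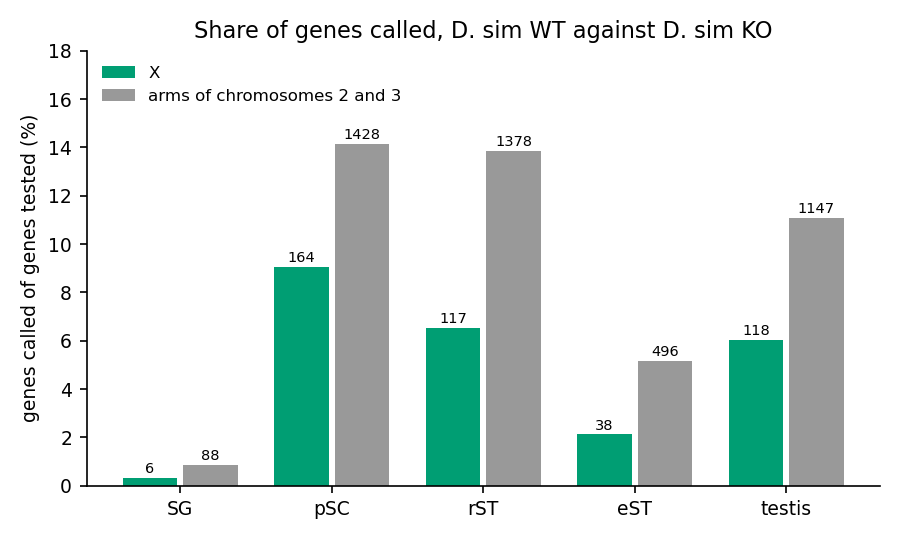
Share of tested genes called between D. sim WT and D. sim KO (vertical axis, %) on X (green) and on the arms of chromosomes 2 and 3 (grey), by stage and in testes, with the number of called genes above each bar. The bar for X is the lower one in each of the 5 sets of libraries.

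Within arms, some stretches were rich in called genes. Among 114 windows of 1 Mb with at least 20 tested genes, 15 held no called gene and 13 had at least 10% of their genes called. None of these 13 windows is among the 21 windows of X. They hold 10.6% of the tested genes and 27.7% of the called ones. The highest share was in 2L:13000001-14000000, with 12 of 80 genes. In 3L:11000001-12000000, 18 of 122 genes were called, 15 of them higher in D. sim WT. In 3L:1-1000000 it was 14 of 108 genes, of which 13 were lower. The direction thus differed between stretches. The 13 windows were chosen for their calls at eST. In the libraries of the same strains, 25.3% of their genes were called at rST and 16.2% in testes. The shares were 11.2% and 9.56% in all other windows, which include those of X and those with fewer than 20 tested genes. Genes called at eST were often called in these libraries too, so the shares are no separate evidence for the windows.

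Of 11511 pairs of genes adjacent among the tested genes of a scaffold, both genes were called in 52. The direction was the same in 33 of these pairs (63.5%), while 52% of all adjacent pairs had the same sign. Without the 3 cysts near rST it was the same in 20 of 38 pairs (52.6%), near the share over all adjacent pairs. With DESeq2 in place of edgeR it was the same in 90 of 137 pairs (65.7%). In 9 of the 52 pairs the spans of the genes overlap, and reads from the shared stretch cannot be assigned by strand.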

How the data were processed

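The authors trimmed reads with Trimmomatic 0.36, mapped them with HISAT2 2.2.0 to D. simulans r2.02 and counted them per gene with HTSeq 0.6.0 without regard to strand. They deposited raw counts, not normalized, and FPKM values from StringTie 2.1.4. How cysts were shared out over males is not given in the sources used here, so p-values measure the spread between cysts. Here edgeR 4.0.16 in R 4.3.3 (with limma 3.58.1) scaled the counts by TMM and compared the lines by two-sided quasi-likelihood tests, adjusted after Benjamini and Hochberg, for genes above 5 normalized counts on average in at least 1 line. The interaction was fitted over eST and rST cysts. FPKM, as log2(FPKM + 1), gave positions and similarities. Alternatives were DESeq2 1.42.0, its size factors, other filters, all cysts in 1 fit, a replicate block, the position as a covariate and each cyst left out. Chosen after seeing the data were the fits without 3 cysts, with 7 cysts of like position and with glmTreat. The fits were tested on simulated data. Identifiers printed are the largest change and the most abundant gene without overlap in each direction. The comparison, gene lists and rules were chosen with earlier results of these data known. The lists of marker symbols matched no gene and gave no result. Python 3.11.15 with scipy 1.17.1 was used for the rest.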

Additional observations from a re-analysis of the deposited data

Results flagged for a closer look

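Gaps between replicates were looked at in 26 groups of 6 eST cysts, over depth, position, similarity and the genes given by identifier, where about 1 in 20 groups would stand out by chance. In 1 of them a cyst lay far from the rest of its line. FBgn0195978 had 231 normalized counts in D. sim KO replicate 5, and its gap to the next cyst was 0.703 of the whole range of the line. That cyst is also the D. sim KO cyst with the lowest position, 0.212.

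The difference between the lines at eST was unlike that at rST, by the test of the interaction, for 11 genes. This number was 0 without D. sim KO replicate 1 or 3, and 0 with the replicate block.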

How the results depend on the processing

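No gene called at eST changed direction in any of 22 other fits that tested it, and 198 of the 542 were called in all of them. The number of called genes was 914 with DESeq2 (540 shared), 1155 with all D. sim cysts in 1 fit (527 shared) and 299 with glmTreat against a log2 fold change of 1. Leaving out each cyst in turn gave 415 to 568. With 7 cysts of like position it was 559, of which 358 were shared. The number called in the interaction was 112 with DESeq2, 25 with DESeq2's size factors, 30 with a filter of 50 normalized counts, 183 without the 3 cysts near rST, 0 with the replicate block (692 genes at an unadjusted p under 0.05, against 750 without it) and 0 to 55 when each cyst was left out. Replicate numbers are shared by the lines, but same-numbered cysts correlated between -0.146 and 0.31 and only number 5 matched its own number best, so the block only describes the calls, 403 in place of 542 at eST. With it, FBgn0193415 had an adjusted p of 0.0586 and FBgn0196985 one of 0.0657 in edgeR. The shares called on X and on the arms of 2 and 3 rose to 4.02% and 8.66% with DESeq2.

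Genes without names, 1 strain per genotype and a biological coefficient of variation of 72.8% limit what can be called, and a gene without a call is not shown to be alike in both lines.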
